A study of Mus musculus with 12 samples.

Results

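The genes described here mark the region of origin of brain microvessels. They are the 10 genes Mrap2, Fabp3, Sema3b, Esrrg, Slc6a15, A2m, Alx1, Upk1b, Chst2 and Ism1, out of 18193 genes with a probe set of their own on the array, and they were chosen by their large expression differences between cerebellar and cerebral vessels in control arrays. All probe sets annotated to a single one of them were used, 23 of 34945, and each gene was followed through all groups to see whether its regional difference persisted without Notch3. Small vessel fragments were taken from the cerebrum and the cerebellum of 3 Notch3 knockout mice and 3 littermate control mice, labelled wildtype, all of strain C57BL/6 and 2 months old, with no treatment named. Their RNA, about 100 ng amplified by a small-sample protocol, was hybridised to 12 Affymetrix Mouse Genome 430 2.0 arrays, 1 per region and mouse, which gives 4 groups of 3. Numbers 1 to 3 below are the replicate numbers of the labels, taken as the mouse within a genotype. The sources used here do not say how the knockout allele was made or how the fragments were isolated.

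Blood vessels of the brain share an endothelium with a blood-brain barrier but differ along the brain in what surrounds it. The mural cells of forebrain vessels, smooth muscle cells and pericytes, come largely from the cranial neural crest, and those of the hindbrain largely from mesoderm. Notch3 is a receptor that mural cells use to receive signals from ligands on neighbouring cells. Fragments prepared from brain can also carry leptomeninges, choroid plexus, astrocyte endfeet and pieces of neurons.

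Array medians lay between 3.24 and 3.30 log2, and arrays of 1 group correlated with r from 0.991 to 0.996. Both probe sets of Notch3 matched the labels, with 10.84 to 12.02 and 6.74 to 8.21 log2 in control arrays against 2.48 to 3.58 and 2.21 to 3.76 in knockout arrays. Of 15 endothelial markers 0 were called between the regions in knockout vessels with all arrays, and 1 was called lower in cerebellar vessels without control cerebral 3 or without knockout cerebral 2; the median difference was 0.03. Arrays carry no molecule counts, so the number of arrays limits the precision. The median of all values, 3.27 log2, serves below as the mark of a dim signal, and all levels are log2 expression values of 1 probe set per gene.

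Regional differences are cerebellar minus cerebral. In control vessels, 6 of the genes were higher in cerebellar vessels (Mrap2, Fabp3, Sema3b, Esrrg, Slc6a15 and A2m) and 4 were higher in cerebral vessels (Alx1, Upk1b, Chst2 and Ism1). This control difference chose the genes and is given without a test. By size it ranked from 8 (Chst2) to 194 (Ism1) among the 11716 genes tested. Dlk1, ranked 7 with 3.09 log2, stood just above Chst2, and Cxadr and Cfap126, ranked 193 and 195 with 1.07 and 1.06, stood on either side of Ism1.

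In knockout mice, whose arrays the rule for the genes did not use, 7 of the 10 genes differed between regions in limma's test (Benjamini-Hochberg adjusted p under 0.05), and the background was 6.8% of all genes tested. The 7 were Mrap2, Fabp3, Sema3b, Esrrg and A2m, which rose in cerebellar vessels, and Upk1b and Chst2, which fell. Slc6a15, Ism1 and Alx1 did not pass. Outside control cerebral vessels Alx1 was dim on every array but knockout cerebral 1, which lay just above the mark at 3.35. The order of its knockout values and its failure to pass therefore carry little information, and Alx1 is left out of the next counts. The other 9 had the sign seen in controls, which 71.3% of all genes had, and in these 9 the 3 cerebellar and the 3 cerebral knockout values did not overlap, as in 25.4% of all genes. The median size of the knockout difference was 2.20 log2 over the 9 genes and 0.105 over all genes, beside 2.52 and 0.0987 in controls (in controls 2.29% of all genes were called and 21.0% did not overlap). Because fragments were profiled in bulk, fewer cells of a type and less RNA per cell cannot be told apart in any of these differences.

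**Figure D1:**
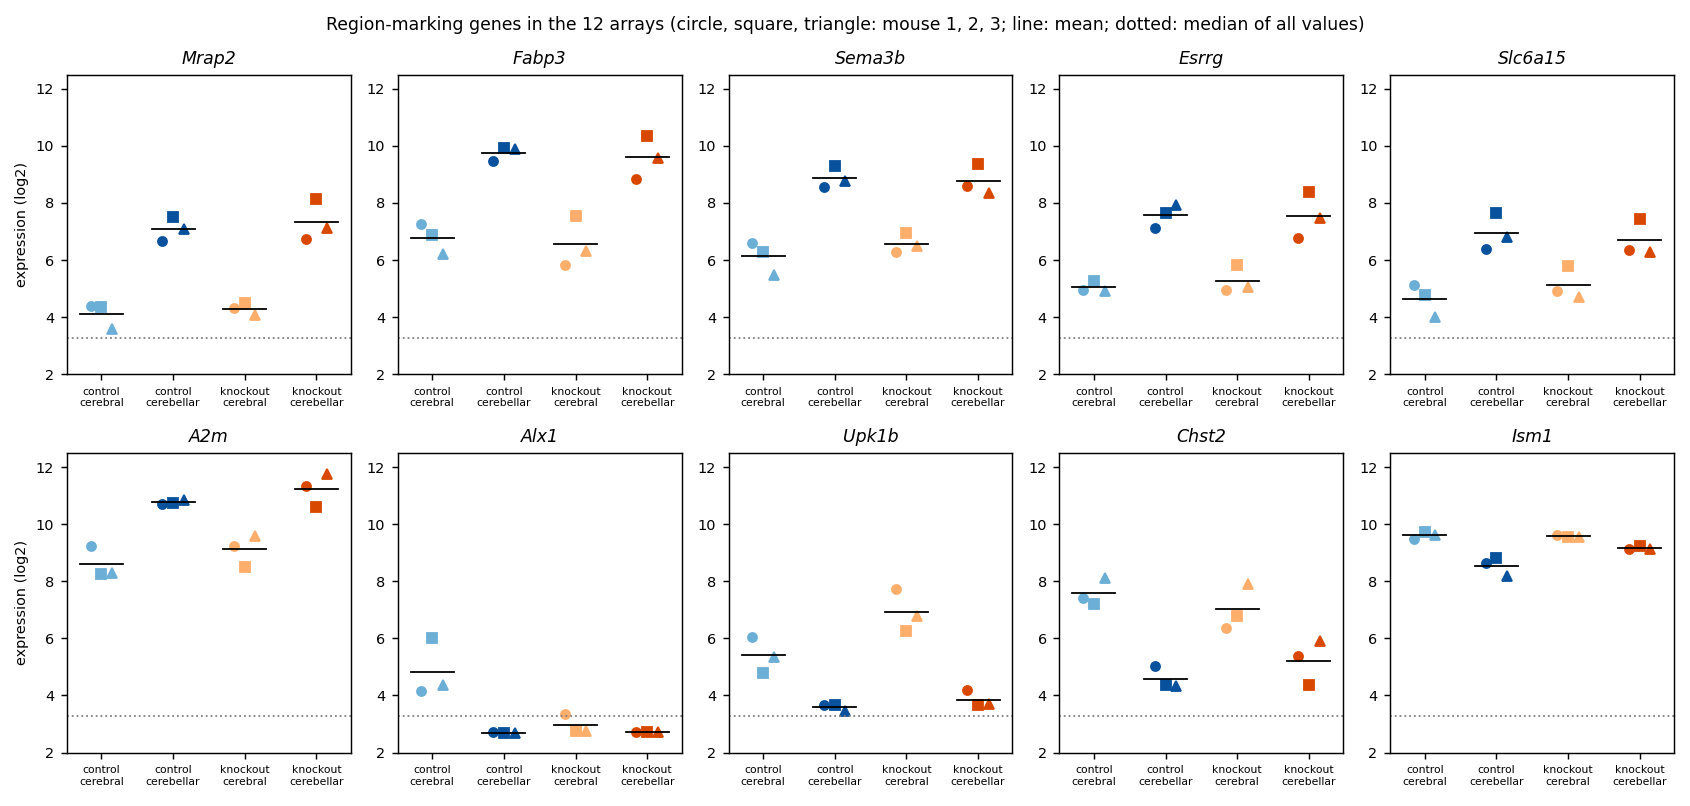
Log2 expression of the 10 genes in each of the 12 arrays, by group, with mouse 1, 2 and 3 of each genotype as circle, square and triangle, the group mean as a line and the median of all values, 3.27, dotted. The first 6 genes were higher in both cerebellar groups, Chst2, Upk1b and Ism1 were lower in both, and Alx1 exceeded 4 log2 only in control cerebral vessels.

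Mrap2 encodes an accessory protein of melanocortin receptors, which it helps to reach the cell surface and whose signalling it modulates. Mice 1 to 3 of the controls read 4.38, 4.36 and 3.58 log2 in cerebral and 6.67, 7.52 and 7.09 in cerebellar vessels. The knockouts read 4.32, 4.50 and 4.08 in cerebral and 6.73, 8.15 and 7.13 in cerebellar vessels. Both genotypes therefore had low cerebral and high cerebellar values with a wide gap between them. The difference was 2.98 in controls and 3.04 in knockouts (SE 0.36, n = 3 arrays per region, adjusted p = 0.0017), an 8.22-fold higher cerebellar level. The other melanocortin receptors and accessory proteins gave 0 of 3 called in either direction, where 3.84% of all genes were called higher and 2.96% lower.

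Fabp3 encodes the heart-type fatty acid binding protein, a cytoplasmic carrier of long-chain fatty acids. Control values were 7.25, 6.88 and 6.22 log2 in cerebral and 9.46, 9.92 and 9.89 in cerebellar vessels, and knockout values were 5.82, 7.53 and 6.32 against 8.86, 10.34 and 9.59. Mouse 2 of the knockouts was the highest of its genotype in both regions, yet its cerebral value stayed below every cerebellar one. The difference of 3.04 in knockouts (SE 0.47, adjusted p = 0.0052) lay beside 2.97 in controls. None of 14 other genes of fatty acid uptake and binding was called, beside 6.8% of all genes, with a median of 0.06 log2 against 0.00 over all genes.

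Mrap2 and Fabp3 had nearly equal differences in both genotypes, and Chst2 a difference of like size and opposite sign in controls, so the 250 bases before the start site of each are shown, 5′ to 3′ on the gene's strand, from RefSeq (GRCm38.p6). The windows are chr9:87144056-87144305 (plus strand) for Mrap2, chr4:130308488-130308737 (plus strand) for Fabp3 and chr9:95407271-95407520 (minus strand) for Chst2. Capitals mark TGGGAA, the core motif of RBPJ, the DNA-binding partner of Notch, in Mrap2 and GGGCGG, the GC box, in Chst2.
Mrap2: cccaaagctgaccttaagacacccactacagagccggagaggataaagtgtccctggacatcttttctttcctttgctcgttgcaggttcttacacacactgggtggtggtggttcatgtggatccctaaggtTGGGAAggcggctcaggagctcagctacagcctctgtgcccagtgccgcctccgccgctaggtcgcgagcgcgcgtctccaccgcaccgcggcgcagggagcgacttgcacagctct
Fabp3: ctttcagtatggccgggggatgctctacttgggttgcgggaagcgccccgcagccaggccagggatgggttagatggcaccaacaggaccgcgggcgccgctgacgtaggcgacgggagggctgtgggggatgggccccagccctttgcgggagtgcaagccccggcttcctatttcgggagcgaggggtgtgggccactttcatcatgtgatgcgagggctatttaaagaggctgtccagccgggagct
Chst2: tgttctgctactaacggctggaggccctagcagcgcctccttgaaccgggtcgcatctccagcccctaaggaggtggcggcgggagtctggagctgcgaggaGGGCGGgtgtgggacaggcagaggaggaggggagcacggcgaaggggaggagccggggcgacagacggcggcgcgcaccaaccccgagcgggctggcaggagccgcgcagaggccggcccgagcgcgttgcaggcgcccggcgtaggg
The motif in Mrap2 begins 117 bases before the start site and that in Chst2 148 bases before it. Both strands were searched, and 21.6% of 32851 promoter windows of this length held TGGGAA and 32.7% held GGGCGG. The TATA box, TATAAA (12.4% of windows), TCAAGGTCA, the response element of estrogen-related receptors (0.387%), and the palindromic paired site of aristaless-type homeodomain proteins (0.463%) were in none of the 3 windows. The GC content was 60.0% for Mrap2, 64.8% for Fabp3 and 72.8% for Chst2, beside a median of 52.4% over all windows. Esrrg had 4 windows in the same table, 1 with TATAAA and 2 with GGGCGG.

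Sema3b encodes a secreted semaphorin, a guidance cue that acts through neuropilin and plexin receptors. Its control arrays gave 6.61, 6.30 and 5.48 log2 in cerebral and 8.56, 9.31 and 8.77 in cerebellar vessels. Knockout arrays gave 6.30, 6.93 and 6.50 against 8.60, 9.36 and 8.36. The cerebellar values of both genotypes covered much the same range, and no cerebral value reached it. The difference was 2.75 in controls and 2.20 in knockouts (SE 0.34, adjusted p = 0.0054), a 4.58-fold higher cerebellar level. Among 20 other semaphorins and their receptors, 2 were called higher and 2 lower in knockout cerebellar vessels (3.84% and 2.96% of all genes). Plxnb1, a plexin, rose by 0.71 (SE 0.08), while the transmembrane semaphorins Sema4d and Sema4b fell by 1.01 (SE 0.22) and 0.99 (SE 0.16). The higher count was 1 without knockout cerebral 3, cerebellar 1 or cerebellar 2, and the lower count was 1 without knockout cerebral 1 or 3 or cerebellar 2 or 3.

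A2m encodes alpha-2-macroglobulin, a secreted trap for proteases of many classes. Controls had 9.23, 8.26 and 8.29 log2 in cerebral and 10.71, 10.74 and 10.84 in cerebellar vessels. Knockouts had 9.25, 8.52 and 9.59 in cerebral and 11.34, 10.60 and 11.77 in cerebellar vessels. Mouse 2 of the knockouts was here the lowest in both regions, unlike for the other 5 genes with high cerebellar levels. The difference was 2.17 in controls and 2.12 in knockouts (SE 0.36, adjusted p = 0.0073). Of 15 other protease inhibitors and the macroglobulin receptor, 5 rose in knockout cerebellar vessels and 0 fell (3.84% and 2.96% of all genes). They included Timp4, an inhibitor of metalloproteinases (1.23, SE 0.25), Itih3, an inhibitor heavy chain of the extracellular matrix (0.91, SE 0.21), and Serping1, the inhibitor of complement C1 (0.80, SE 0.10). The 5 depended on single arrays: 1 was called without knockout cerebellar 2 or 3, 2 without knockout cerebral 1 or cerebellar 1, and 3 without knockout cerebral 2 or 3, control cerebral 1 or control cerebellar 1 or 3, with 1 then called lower without knockout cerebral 2.

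Esrrg encodes estrogen-related receptor gamma, an orphan nuclear receptor that drives genes of oxidative metabolism. The values were 4.95, 5.26 and 4.93 log2 in control cerebral and 7.12, 7.64 and 7.93 in control cerebellar vessels. Without Notch3 they were 4.95, 5.82 and 5.06 against 6.79, 8.38 and 7.49. The cerebral group was tight in controls, and mouse 2 stood highest in both knockout groups. The difference was 2.52 in controls and 2.28 in knockouts (SE 0.37, adjusted p = 0.0064), a 4.85-fold higher cerebellar level. Of 20 other nuclear receptors and coactivators, only 1 was called, close to the 6.8% of all genes. It was Ppargc1a, a coactivator of the estrogen-related receptors, with a rise of 0.96 (SE 0.19). The list had 0 called higher without knockout cerebral 1 or 3, and 1 called lower without knockout cerebral 2 or cerebellar 1.

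Slc6a15 encodes a sodium-coupled transporter of branched-chain amino acids and proline. It read 5.14, 4.77 and 4.01 log2 in control cerebral and 6.39, 7.64 and 6.82 in control cerebellar vessels, a difference of 2.30. Knockout values were 4.92, 5.80 and 4.70 against 6.35, 7.42 and 6.28. The regions stayed apart, but the cerebral value of knockout mouse 2 came within 0.5 log2 of the lowest cerebellar one. The knockout difference was 1.55 (SE 0.44, 95% confidence interval 0.56 to 2.53, adjusted p = 0.068) and missed the threshold. With the mouse as a block, which compares the regions within each animal, its adjusted p was 0.0155. Leaving out the cerebral array of knockout mouse 2 gave 1.88 and an adjusted p of 0.033. Of 18 other amino acid transporters, 3 rose and 1 fell in knockout cerebellar vessels (3.84% and 2.96% of all genes). Among them were the glycine transporter Slc6a9 (1.49, SE 0.20), the glutamine transporter Slc38a1 (0.80, SE 0.17) and the neutral amino acid exchanger Slc7a8 (-1.15, SE 0.28). With 1 array left out, 2 to 4 were called higher, and the lower call was kept only without control cerebral 3, knockout cerebral 2 or knockout cerebellar 1.

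Chst2 encodes a sulfotransferase of the Golgi that adds sulfate to N-acetylglucosamine in glycans. Controls read 7.42, 7.19 and 8.12 log2 in cerebral and 5.02, 4.36 and 4.34 in cerebellar vessels. Knockouts read 6.37, 6.78 and 7.91 against 5.39, 4.37 and 5.92. The gap between the regions narrowed to less than 0.5 log2 in knockouts, between cerebral mouse 1 and cerebellar mouse 3. The difference was -3.00 in controls and -1.80 in knockouts (SE 0.47, adjusted p = 0.046). This call was lost when any single array other than knockout cerebellar 3 was left out (adjusted p 0.0504 to 0.144) and when the probe sets of the gene were averaged (-0.98, adjusted p = 0.081). None of 15 other carbohydrate sulfotransferases and sulfatases was called (6.8% of all genes), and their median was 0.02, but 3 were called lower without knockout cerebral 2 and 1 without control cerebral 3.

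Upk1b encodes uroplakin 1B, a tetraspanin known from the surface of the bladder lining. Control cerebral vessels gave 6.04, 4.80 and 5.36 log2 and control cerebellar vessels 3.65, 3.66 and 3.47. Knockout cerebral vessels gave 7.72, 6.26 and 6.77 and knockout cerebellar vessels 4.19, 3.66 and 3.69. Every knockout cerebral value lay above every control one, whereas the cerebellar groups both lay close to the dim mark. The difference was -1.81 in controls and -3.07 in knockouts (SE 0.37, adjusted p = 0.0018), an 8.39-fold higher cerebral level. Of the 15 other uroplakins and tetraspanins, only Cd53, a tetraspanin of leukocytes, was called, close to the 6.8% of all genes. Cd53 fell by 1.07 (SE 0.16) in knockout cerebellar vessels. In this list 2 were called lower without control cerebellar 3 or knockout cerebral 2.

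Alx1 encodes an aristaless-type homeodomain transcription factor of the cranial mesenchyme. In control cerebral vessels it read 4.15, 6.00 and 4.36 log2, and in control cerebellar vessels 2.72, 2.67 and 2.70. Knockout cerebral vessels read 3.35, 2.75 and 2.76, and knockout cerebellar vessels 2.74, 2.71 and 2.73. All 3 control cerebral arrays were above the dim mark, together with only 1 other array of the 12, so Alx1 entered the tested genes through cerebral vessels alone. In controls it was at least 2.97-fold higher in cerebral vessels, with a log2 difference of -2.14 that fell to -1.56 in size without control cerebral 2. In knockouts the difference was -0.23 (SE 0.39, 95% confidence interval -1.09 to 0.63, adjusted p = 0.83). This test cannot tell whether the difference persisted, since every knockout value but that of cerebral mouse 1 was dim. Its standard error is shared by the groups and includes the spread of control cerebral arrays (SD 1.01), against 0.35 in knockout cerebral and 0.016 in knockout cerebellar arrays. Among 8 other frontonasal and cranial mesenchyme transcription factors, Foxd1 (0.76, SE 0.10) and Twist1 (0.72, SE 0.18) rose in knockout cerebellar vessels and 0 fell (3.84% and 2.96% of all genes). Only 1 was called without any one of the 3 knockout cerebral arrays, knockout cerebellar 1 or 2, control cerebral 3 or control cerebellar 1.

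Ism1 encodes isthmin 1, a secreted protein with a thrombospondin repeat, first known from the boundary of midbrain and hindbrain. Its values were 9.48, 9.71 and 9.63 log2 in control cerebral and 8.63, 8.83 and 8.17 in control cerebellar vessels. The knockouts gave 9.63, 9.55 and 9.56 against 9.12, 9.24 and 9.12. Cerebral levels coincided between the genotypes, and every knockout cerebellar value lay above every control one. The difference was -1.07 in controls and -0.42 in knockouts (SE 0.14, 95% confidence interval -0.72 to -0.11, adjusted p = 0.104) and missed the threshold. It passed with the 6 knockout arrays alone (adjusted p = 0.029), with the mouse as a random block (0.034) and without control cerebellar 3 (0.017), but not with the mouse as a fixed block. Of 9 other secreted proteins with thrombospondin repeats, 3 rose in knockout cerebellar vessels and 0 fell (3.84% and 2.96% of all genes). They were Spon1, or spondin 1 (1.20, SE 0.19), Adamtsl1 (0.93, SE 0.20) and Adamts5 (0.50, SE 0.12). In controls their differences were 0.02, 0.28 and 0.31. The knockout count was 1 without knockout cerebellar 1 or 2, and 2 without any one of the 3 knockout cerebral arrays.

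Within mice, all 3 knockout animals had the control sign for the 9 genes other than Alx1, whose knockout values were dim on all arrays but knockout cerebral 1. For A2m the 3 knockout mice were nearly identical, at 2.09, 2.08 and 2.18 log2, where the control mice gave 1.48, 2.48 and 2.55. Slc6a15 gave 1.44, 1.62 and 1.58 in knockout mice and 1.24, 2.86 and 2.81 in controls, so control mouse 1 lay below all knockouts and the other two controls above them.

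**Figure D2:**
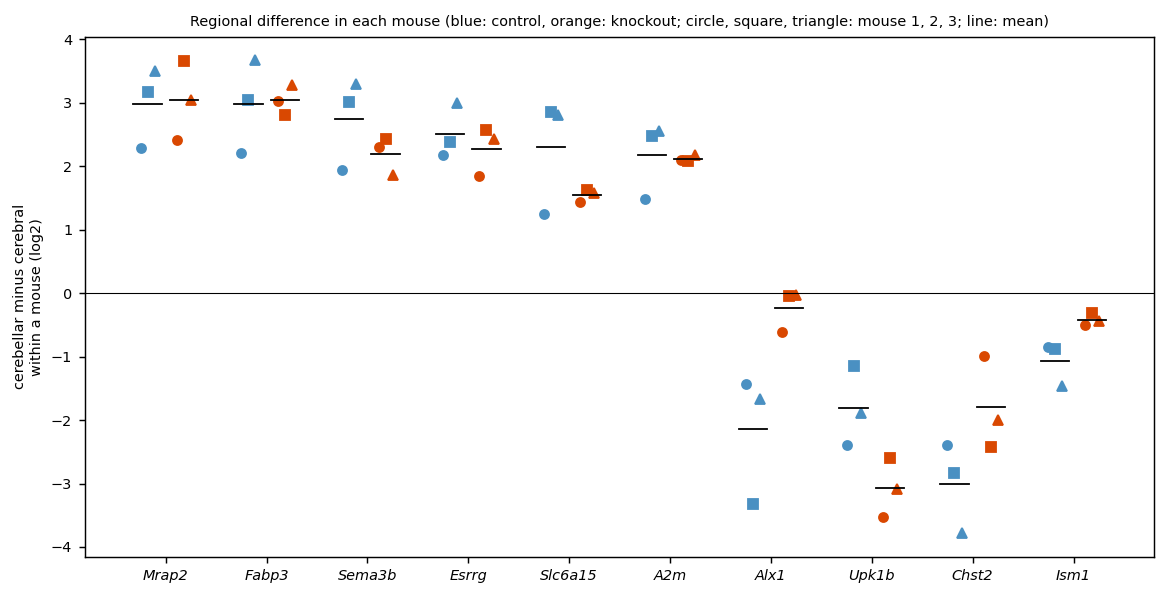
Cerebellar minus cerebral log2 expression within each mouse, controls in blue and knockouts in orange, with mouse 1, 2 and 3 as circle, square and triangle and the mean as a line. Alx1 is dim in 3 of the 4 groups but for knockout cerebral 1. Apart from Alx1, control and knockout mice do not overlap for 2 of 9 genes, Upk1b and Ism1, beside 15.8% of all genes.

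The regional difference was then set side by side between genotypes, as knockout minus control. Since control arrays chose the genes, these values are a description with no test. Differences near 0 were those of Mrap2 (0.05, SE 0.51), Fabp3 (0.07, SE 0.66) and A2m (-0.05, SE 0.50), with Esrrg at -0.24 (SE 0.53). Sema3b (-0.55, SE 0.48) and Slc6a15 (-0.76, SE 0.63) had smaller differences in knockouts, by about their standard errors. The 4 genes high in cerebral vessels lay further from 0 relative to their standard errors: Alx1 at 1.91 (SE 0.55), Chst2 at 1.21 (SE 0.66), Upk1b at -1.26 (SE 0.52) and Ism1 at 0.65 (SE 0.19). The value for Alx1 rests on control cerebral arrays, since the other groups were dim but for knockout cerebral 1. The knockout difference in log2 was 39.1% of the control one for Ism1, 59.9% for Chst2 and 170% for Upk1b. In size, 6 of the 9 differences other than that of Alx1 were smaller in knockouts and 3 larger.

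**Figure D3:**
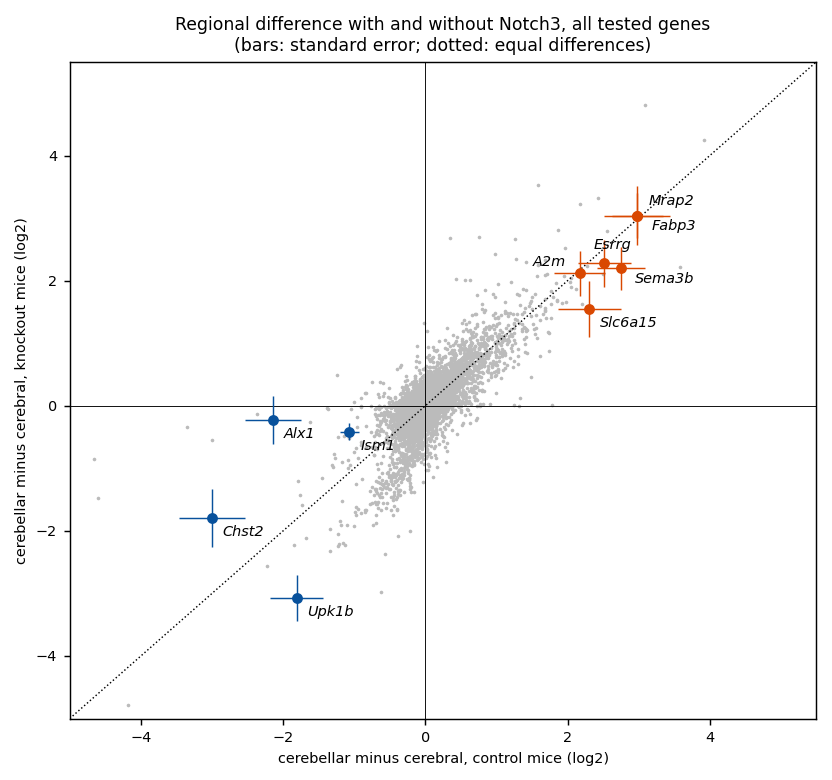
Cerebellar minus cerebral difference (log2) in control mice on the horizontal axis and in knockout mice on the vertical axis, for all 11716 tested genes in grey and the 10 genes in colour with standard errors; the dotted line marks equal differences. Mrap2, Fabp3 and A2m lie on the line, Alx1 lies near 0 on the knockout axis and Upk1b lies beyond the line.

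For the 4 genes high in cerebral vessels the genotypes were also set side by side within each region, again with no test. Knockout minus control in cerebral vessels was -1.88 (SE 0.39) for Alx1, 1.52 (SE 0.37) for Upk1b, -0.55 (SE 0.47) for Chst2 and -0.03 (SE 0.14) for Ism1. In cerebellar vessels it was 0.65 (SE 0.47) for Chst2, 0.62 (SE 0.14) for Ism1 and 0.26 (SE 0.37) for Upk1b, and Alx1 was dim there in both genotypes. Of the 9 genes other than Alx1, the genotypes did not overlap for 1 in cerebral vessels (Upk1b; 24.4% of all genes) and for 2 in cerebellar vessels (Ism1 and, by the narrowest of margins, Upk1b; 22.1%), shares no larger than or close to those of all genes.

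Genotype itself was tested on the mean of both regions of each mouse, 3 against 3. Alx1 is left out here, because its cerebellar values were dim in both genotypes and its mean over regions (-0.93, SE 0.25) restates the control cerebral level that chose it. None of the other 9 genes was called with limma (Benjamini-Hochberg adjusted p under 0.05), beside 4.03% of all genes, and 2 of 9 had an unadjusted p under 0.05, beside 19.7%. These were Upk1b, with a knockout minus control difference of 0.89 (SE 0.29, adjusted p = 0.171), and Ism1 with 0.30 (SE 0.10, adjusted p = 0.174). For the other 7 genes the difference lay between -0.20 (Fabp3, SE 0.39) and 0.50 (A2m, SE 0.30). The median size was 0.196 over the 9 genes and 0.0950 over all genes tested.

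Of the 23 probe sets, 15 were above the dim mark on at least 1 array and 8 lay at or under it on all 12. All 4 probe sets of Upk1b ran the same way, lower in cerebellar vessels, with knockout differences of -4.23, -3.80, -3.07 and -1.61 log2 beside -2.80, -1.90, -1.81 and -0.85 in controls. On the probe set with -4.23 both cerebellar groups were dim, and cerebral vessels were at least 4.02-fold higher in controls and at least 11.7-fold higher in knockouts. A second probe set of Ism1 gave -0.68 in controls and -0.15 in knockouts, and a second one of Chst2 gave -0.50 and -0.16. Both had the sign of the first probe set at a smaller size, and their knockout regions overlapped for both genes. Mrap2, Slc6a15 and A2m had a single probe set.

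**Figure D4:**
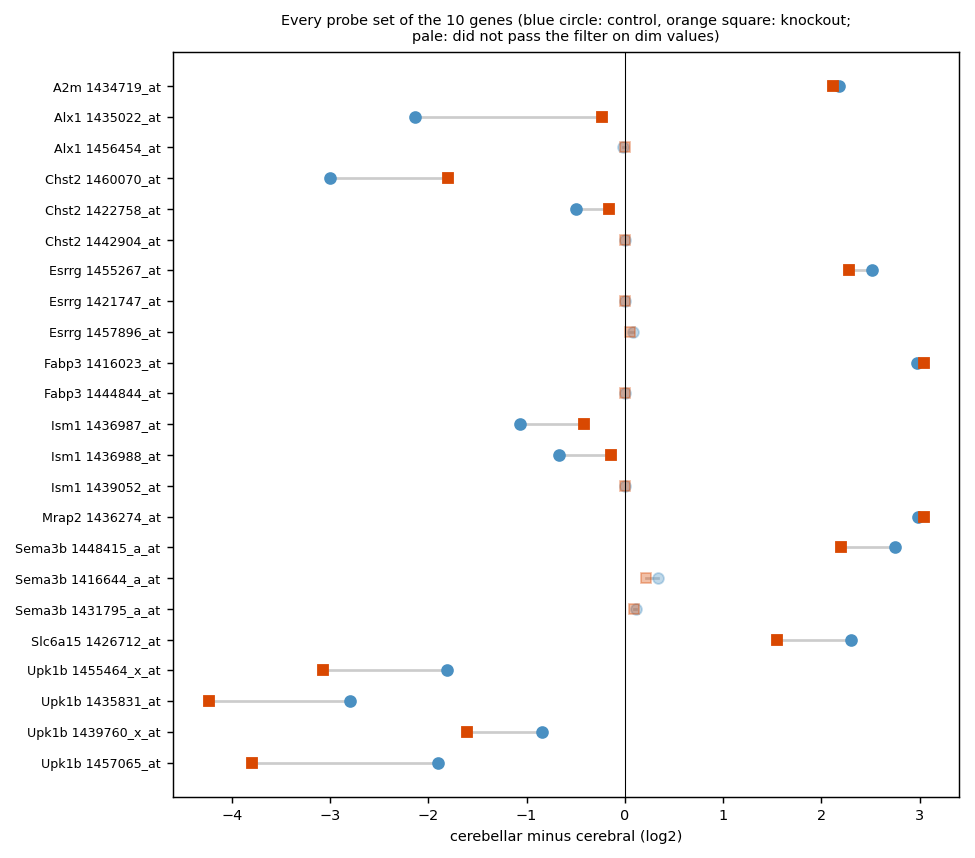
Cerebellar minus cerebral difference (log2) of all 23 probe sets of the 10 genes, with controls as blue circles, knockouts as orange squares and pale points for probe sets that did not pass the filter on dim values. The 4 probe sets of Upk1b lie further from 0 in knockouts, and the probe sets of Ism1 and Chst2 that passed the filter lie closer to 0.

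Genes with the most similar pattern were found by Pearson's r over the 12 arrays with the mean of each directional group after scaling, a description without a test in which the arrays share their groups. Abca4, a transporter of retinoids (0.987), Strip2 (0.984), the integrin Itgb8 (0.981), Igfbp2 (0.981) and Atp1b1, a subunit of the sodium pump (0.980), were the 5 most like the 6 genes high in cerebellar vessels. Those 6 had r from 0.88 (A2m) to 0.99 with their own mean. For the genes high in cerebral vessels, the 5 were Xiap (0.958), Ncan (0.928), Yipf2 (0.925), Palm (0.912) and Hspa14 (0.911). In that order their control regional differences were -0.16, -1.46, -0.26, -0.70 and -0.13, so Xiap, Yipf2 and Hspa14 hardly differed between regions. The 4 genes high in cerebral vessels had r from 0.70 (Alx1) to 0.93 with their own mean. Each gene is part of the mean it was compared with, and the groups differ in size. Alx1, above the dim mark on only 4 of 12 arrays, is also included. These r values therefore do not compare how uniform the 2 groups are. Among the 38 nearest tested neighbours on the chromosomes, Alx1 and Slc6a15 included, 3 were called in knockouts with limma, beside 6.8% of all genes. They were Serinc2 beside Fabp3 (1.17, adjusted p = 0.037), Lsamp beside Upk1b (0.85, adjusted p = 0.036) and Slc9a9 beside Chst2 (-1.36, adjusted p = 0.020). Alx1 and Slc6a15 are adjacent among tested genes on chromosome 10 and had opposite regional signs.

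Markers of other cell types moved between the regions as well, for several lists less in controls than in knockouts. Over all genes, 3.84% were called higher and 2.96% lower in knockout cerebellar vessels, and 2.29% were called in either direction in controls. Choroid plexus epithelium, of which the list held 12 tested markers, had 4 called higher and 0 lower in knockout cerebellar vessels (median 0.98), for example the bicarbonate transporter Slc4a5 (1.90), the potassium channel subunit Kcne2 (1.60) and Igfbp2 (1.46), which was also among the most similar genes above. In controls 4 of the 12 markers were called higher and 0 lower (median 1.26). Their summed level, as log2, was 16.4 to 16.5 in control cerebral, 16.8 to 17.0 in control cerebellar, 16.4 to 16.8 in knockout cerebral and 16.9 to 17.1 in knockout cerebellar vessels, and 0 of the 12 were at or under the dim mark throughout any group. The mean marker level of the cerebral array of knockout mouse 2 was 11.67, against 10.67 and 10.71 in the other two, and in knockout vessels this mouse was also the highest for 5 of the 6 genes high in cerebellar vessels in either region. Control mouse 2 had the highest mean marker level too, at 11.01 against 10.87 and 10.47 in cerebral and 12.31 against 11.70 and 12.13 in cerebellar vessels. It was the highest control for 1 of the 6 genes in cerebral and for 4 in cerebellar vessels. Without the cerebral array of knockout mouse 2, 10 of the 12 markers were called in knockouts, with a median of 1.31, and without both arrays of that mouse 6 were. Without the cerebral array of knockout mouse 1 or of mouse 3, or the cerebellar array of mouse 2, only 1 was called, and the median was 0.79, 0.85 and 0.83. Without both arrays of mouse 2, 6 of the 10 region-marking genes were called, Chst2 (adjusted p = 0.142) being the one lost. The part of the choroid plexus markers in the result was not tested.

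Pericyte markers rose in knockout cerebellar vessels for 9 of 10 and fell for 0 (median 0.88), for example Ndufa4l2 (1.07) and Art3 (1.02), with summed levels of 16.4 to 16.5 and 16.8 to 16.9 in control and 16.2 to 16.3 and 16.6 to 16.7 in knockout cerebral and cerebellar vessels. Fibroblasts of meninges and vessels had 6 of 17 called higher (median 0.44), led by the matrix proteoglycans Lum (2.11) and Dcn (1.44), and 2 without knockout cerebral 1 or cerebellar 2 and 3 without knockout cerebral 3 or cerebellar 1. Arachnoid barrier cells had 1 of 9 (0.28), 2 without control cerebral 2 or 3 and 3 without knockout cerebral 2. Astrocytes had 6 of 12 called higher (0.78), cerebellar neurons 6 of 8 (1.42; Gabra6, a GABA receptor subunit of granule cells, 2.66) and ependymal cells 3 of 5 (1.40), or 1 without knockout cerebral 1 or 3 or cerebellar 2 or 3. Cerebellar neurons had 4 without knockout cerebral 1 or 3, and 5 without any one control cerebellar array or knockout cerebellar 1 or 2. Without control cerebral 3 or knockout cerebral 2, 1 astrocyte marker was called lower. In controls 7 of 10 pericyte (median 0.64), 4 of 17 fibroblast (0.29), 1 of 9 arachnoid (0.00) and 4 of 12 astrocyte markers (0.49) were called higher. Cerebellar neurons had 2 of 8 (0.58; Gabra6 1.26) and ependymal cells 0 of 5 (0.56) in controls. In the other direction, 8 of 9 microglia markers fell in knockout cerebellar vessels (median -1.19; P2ry12, a purine receptor, -1.74) and 0 rose. The knockout count was 3 without knockout cerebral 1, 4 without knockout cerebral 3 or cerebellar 3, and 5 without knockout cerebellar 1 or 2. In controls 0 of the 9 microglia markers were called in either direction (median -0.59). Their summed level was 15.9 to 16.4 in control cerebral, 15.7 to 16.0 in control cerebellar, 16.6 to 17.0 in knockout cerebral and 16.0 to 16.1 in knockout cerebellar vessels. Smooth muscle had 1 of 10 called higher, and forebrain neurons and oligodendrocytes 0 of 5 and 0 of 4 in either direction, with 1 forebrain neuron marker called higher without knockout cerebral 2. Markers at or under the dim mark on all 3 arrays of a group numbered 2 of 8 in control and 3 of 8 in knockout cerebral vessels for cerebellar neurons. The hindbrain patterning factors had 1 of 6 called higher (Zic1, 0.62), and 0 without any of control cerebellar 2 or 3, knockout cerebral 1 or 3, or knockout cerebellar 1 or 2. The 1 tested forebrain patterning factor was called higher only without knockout cerebral 2 among the single arrays. The part of these markers in the regional differences of the 10 genes was not tested.

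**Figure D5:**
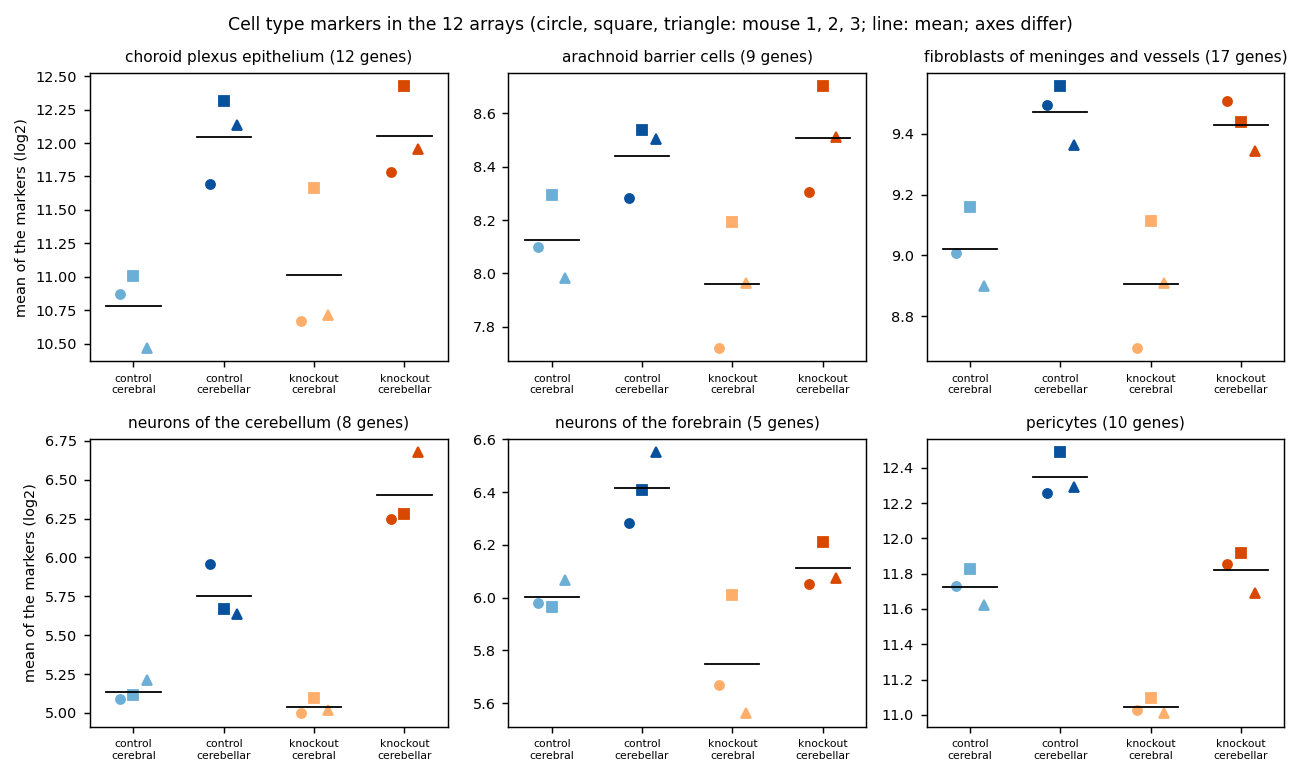
Mean log2 level of the tested markers of 6 cell types in each array, with mouse 1, 2 and 3 as circle, square and triangle, the group mean as a line and a separate axis for each cell type. Choroid plexus markers lie higher in cerebellar vessels of both genotypes, and the cerebral array of knockout mouse 2 stands above the other two cerebral knockouts at 11.67.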

How the data were processed

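The authors deposited log2 expression values per probe set, made with GCRMA 2.32.0 (background correction, normalisation between arrays and summary of probes), per the submitters' processing notes. The values were used as deposited. Of 45101 probe sets, 34958 named 1 gene (13 of them controls of the array maker, left out), 932 several and 9211 none. A probe set was kept if at least 3 of 12 arrays exceeded the median of all values, 3.27, and the one with the highest mean stood for its gene, which left 11716 genes. Regional differences were fitted with limma 3.58.1 in R 4.3.3 (lmFit and eBayes, two-sided) on 4 group means over 12 arrays, and genotype on the 6 mouse means, with Benjamini-Hochberg adjustment over all genes and a threshold of 0.05. The code was tested on simulated data. An "at least" fold sets the dimmer group, when dim on all arrays, to 3.27. Standard errors come from these fits.

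The genes and the marker and pathway lists were chosen with earlier results of these data known. Named beside the 10 genes were, per list, up to 3 called genes with the largest knockout regional difference whose regions did not overlap, then the 5 genes most similar to each directional group, called chromosomal neighbours, and the genes next in rank. Promoter windows came from RefSeq (GRCm38.p6), which held 4 of the 10 genes in the table used; a gene table of the same assembly gave neighbours. The design text names 3 mice per genotype for 12 arrays, so both regions came from the same mice. Deviations from group means correlated between the regions of a mouse with r from 0.37 to 0.70, so the mouse was also used as a block; across genotypes the same numbers gave 0.25, 0.12 and -0.12 and pair no samples. Alternatives covered the filter, probe set choice, scaling, variance model, array weights, arrays in the fit, blocks and fits with 1 array or 1 mouse removed; leaving out both arrays of knockout mouse 2 was added after seeing the data.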

Additional observations from a re-analysis of the deposited data

How the results depend on the processing

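The direction of each of the 10 regional differences held under every alternative run, though for Alx1 all knockout values but that of knockout cerebral 1 were dim. The knockout calls of Mrap2, Sema3b and Upk1b held throughout, those of Fabp3, Esrrg and A2m were lost only with the 6 knockout arrays alone (adjusted p 0.053, 0.064 and 0.055, limma), where 4 of the 10 genes and 322 of all genes were called, and that of Chst2 held in 6 of 23 settings. With the filter at the 75th percentile 3 of the 10 genes were called. Ism1 was tested there and not called, and the others were not tested. Leaving out 1 array each gave 6 to 7 of the 10 genes, and without both arrays of knockout mouse 2 the count for all genes in control vessels was 419.

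Over all genes, the regional count in knockouts (797) was 508 with no filter, 1723 with the mouse as a replicate block and 1947 with it as a random block, and 366 to 1099 with 1 array left out. The control count (268) was 160 with no filter, 1078 with array weights, 915 and 966 with these blocks, and 79 to 323 with 1 array left out. The genotype count (472) was 312 with no filter, 710 with every probe set on its own, 1549 on 12 arrays with 4 group means and 237 to 473 with 1 mouse left out; a block for the replicate number, which pairs no samples across genotypes, called 1 of the 10 genes (Upk1b, 0.89, adjusted p = 0.030). With the mouse as a fixed block Slc6a15 was the one further gene of the 10 called, and as a random block Slc6a15 and Ism1 were. The median knockout minus control difference over the 10 genes, counted toward the control sign, was -0.39. It ran from -0.63 (without knockout cerebellar 2) to -0.20 (without control cerebral 3) with 1 array left out. Alx1 is included, and control arrays chose both the genes and the sign, so this median is a description with no test. Precision is limited by 3 mice per genotype.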
